A study of Mus musculus with 2 samples.

Results

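The genes described here make, move and regulate cholesterol. The list holds 29 of the 21887 protein-coding genes on standard chromosomes in the RefSeq table of GRCm38.p6. They were chosen by name for their role and not by a measured value, though with earlier results of these data known. The list has 18 enzymes of cholesterol synthesis and 5 genes of the SREBP system that regulates them. The other 6 are genes of sterol uptake, intracellular transport and plasma lipoprotein handling. All 29 symbols were found in the table. Around each gene, Hnf4a peak summits were counted inside the gene and near its ends.

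The cells were iHepCs, hepatocyte-like cells that were reprogrammed from mouse embryonic fibroblasts (MEFs; C57BL/6J, labelled WT) by retroviral Foxa2 and Hnf4a and kept in hepato-medium with insulin, dexamethasone, nicotinamide, hepatocyte growth factor and epidermal growth factor. Hnf4a binding was mapped by ChIL-seq, which uses an antibody-linked probe to direct Tn5 tagging of nearby DNA in fixed cells and then transcribes the tagged DNA in place. The 2 samples form 1 group and are called biological replicates in the series text; the peak names put both in the same lot of cells, so they may differ less than separate reprogramming experiments would. No other condition and no control library was analysed here, so no difference between conditions could be tested, and introduced Hnf4a was not told apart from that of the cells' own gene. The lists hold 21283 summits for replicate 1 and 24097 for replicate 2, each a 1-bp position in mm10 with a score, the authors' −log10 q-value. Read depth is unknown, and expression was not measured in these files, so the labelled cell type could not be checked against markers.

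Cholesterol is built from acetyl-CoA in a long series of steps through mevalonate, squalene and lanosterol, and the liver is a main site of this synthesis. The transcription factor SREBP-2 switches the enzymes on when membrane sterol is low. Scap escorts the SREBP precursors from the endoplasmic reticulum to the Golgi for cleavage, and the Insig proteins hold Scap back when sterol is plentiful. Hnf4a is a nuclear receptor known for its control of hepatocyte genes, including genes of lipoprotein and bile acid metabolism.

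Of the genes with summits of both replicates within 1 kb of a listed start, 5 were chosen after the values were seen. These 5 do not stand for the whole list. The sequences before their transcription starts are shown first. Each is the 250 bases upstream of a start listed by RefSeq (GRCm38.p6), 5′ to 3′ on the strand of the gene. For Hmgcs1 (chr13:119690101-119690350, plus strand) and Dhcr7 (chr7:143822917-143823166, plus strand), capitals mark the stretch from the summit of 1 replicate to that of the other, 56 and 29 bases long. For Hsd17b7 (chr1:169969206-169969455, minus strand), Lss (chr10:76531355-76531604, plus strand) and Srebf2 (chr15:82147019-82147268, plus strand), capitals mark 21 bases centred on the single summit that falls in the window, of replicate 2 in Hsd17b7 and of replicate 1 in Lss and Srebf2.
Hmgcs1: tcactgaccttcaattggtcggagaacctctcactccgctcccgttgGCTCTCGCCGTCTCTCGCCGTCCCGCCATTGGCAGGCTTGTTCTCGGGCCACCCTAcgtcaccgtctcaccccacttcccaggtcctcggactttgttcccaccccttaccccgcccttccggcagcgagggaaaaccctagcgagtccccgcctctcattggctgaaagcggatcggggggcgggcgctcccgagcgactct
Dhcr7: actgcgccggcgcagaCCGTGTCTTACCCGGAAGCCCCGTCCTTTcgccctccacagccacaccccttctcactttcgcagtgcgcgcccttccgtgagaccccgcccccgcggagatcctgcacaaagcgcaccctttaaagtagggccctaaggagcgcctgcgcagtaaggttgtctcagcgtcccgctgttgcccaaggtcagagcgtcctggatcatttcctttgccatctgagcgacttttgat
Hsd17b7: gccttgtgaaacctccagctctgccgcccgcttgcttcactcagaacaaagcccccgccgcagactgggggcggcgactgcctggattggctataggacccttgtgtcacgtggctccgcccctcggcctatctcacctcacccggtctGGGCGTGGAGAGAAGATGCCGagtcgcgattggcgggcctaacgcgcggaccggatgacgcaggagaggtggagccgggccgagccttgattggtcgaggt
Lss: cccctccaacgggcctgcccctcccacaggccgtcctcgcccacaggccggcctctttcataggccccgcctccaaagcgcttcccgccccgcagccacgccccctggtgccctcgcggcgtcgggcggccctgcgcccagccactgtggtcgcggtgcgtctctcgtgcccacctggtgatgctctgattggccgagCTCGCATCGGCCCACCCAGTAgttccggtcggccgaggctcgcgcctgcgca
Srebf2: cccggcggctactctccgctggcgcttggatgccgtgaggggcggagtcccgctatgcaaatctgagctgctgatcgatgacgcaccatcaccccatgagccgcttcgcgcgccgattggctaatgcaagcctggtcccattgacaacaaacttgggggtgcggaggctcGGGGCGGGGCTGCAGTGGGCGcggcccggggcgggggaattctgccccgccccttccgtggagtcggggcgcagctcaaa

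The first question was how many of the cholesterol genes had Hnf4a summits nearby. Most did in each replicate, but few had a summit that both replicates placed at the same site. Within 10 kb of a gene end, on either side of it, 20 of 29 genes (69%) carried a replicate 1 summit and 20 of 29 (69%) a replicate 2 summit, against 39.4% and 41.9% of all protein-coding genes. A shared summit, meaning summits of both replicates within 100 bp of each other, lay within 10 kb of 7 of 29 genes (24.1%), against 20.6% of all genes, which is near the background. This count and its order depend on the 100 bp limit and on the score: at 500 bp it was 12 of 29 (41.4%) against 25.4%, at 50 bp 4 of 29 (13.8%) against 15.2%, with scores of 5 or more 5 of 29 (17.2%) against 18.2%, and with the 10000 best-scored summits of each list 3 of 29 (10.3%) against 12%. The median number of summits per gene in this window was 1 in each replicate for the cholesterol genes and 0 in each replicate for all genes. No test was run on these shares: the list was chosen with results of these data known, and its counts are given beside those of all genes as a description.

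**Figure D1:**
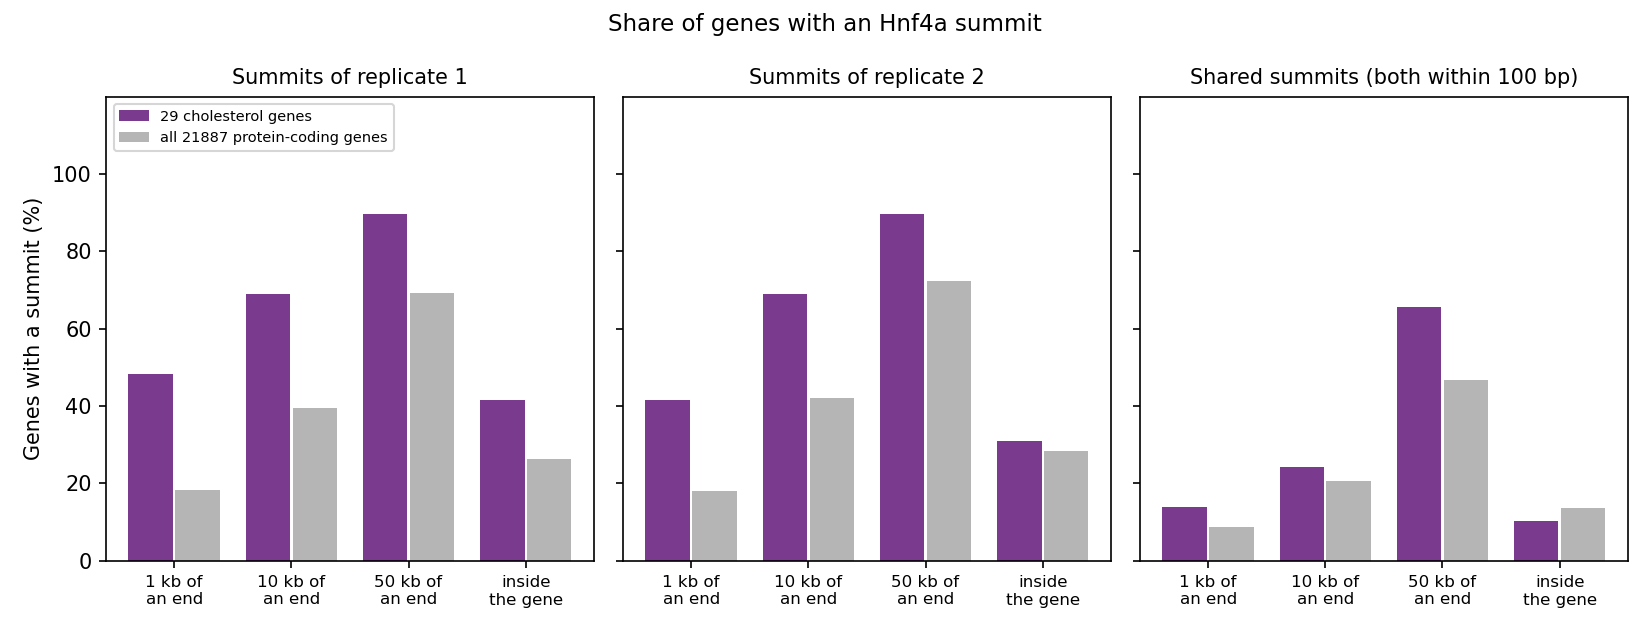
Share of genes (%, y axis) with an Hnf4a summit in each window (x axis), for the 29 cholesterol genes (purple) and all 21887 protein-coding genes (grey). In each replicate the purple bars stand higher near gene ends, as in replicate 1 within 10 kb (69% against 39.4%), while for shared summits within 10 kb they are close (24.1% against 20.6%).

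The cholesterol genes also had the higher share within 50 kb of an end. Inside genes their share was higher for replicate 1 only, and near that of all genes for replicate 2 and for shared summits. Within 50 kb of an end, 26 of 29 genes had a summit in replicate 1 (89.7%) and 26 in replicate 2, against 69.3% and 72.4% of all genes, and 19 had a shared summit (65.5%), against 46.8%. Inside the gene, 12 genes had a summit of replicate 1 (41.4%) and 9 of replicate 2 (31%), against 26.3% and 28.4%, and 3 had a shared summit (10.3%), against 13.7%. Median gene length was alike, at 17.91 kb for the cholesterol genes and 17.17 kb for all genes, which does not show how the longest genes compare. Counted per length of sequence, with overlapping windows merged, the genes with 10 kb on either side had a density per Mb of 24.8 summits for replicate 1, 26.2 for replicate 2 and 6.55 for shared summits, against 11.2, 12.4 and 4.83 around the other protein-coding genes. Inside the genes alone, the densities were 21.4, 21.4 and 3.78, against 9.97, 11.3 and 4.18 for the other genes. Lipc held 6 of the 17 summits inside cholesterol genes in each replicate. With genes for olfactory receptors, mostly silent outside the nose, left out, 41.4% of genes had a summit of replicate 1 within 10 kb, 43.9% one of replicate 2 and 21.6% a shared one.

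The summits of the replicates often lay near each other without meeting the 100 bp limit. At 15 of the 29 genes (51.7%) both lists had a summit in the 10 kb window, against 29.6% of all protein-coding genes. In 7 of those 15 (46.7%) a pair stood within 100 bp, whereas 69.3% of the 6483 protein-coding genes with summits of both replicates had such a pair. The closest pair at these 15 genes was a median of 117 bp apart, against 48 bp over the 6483 genes. Just outside the 100 bp limit were Acat2, which encodes the cytosolic thiolase that joins acetyl-CoA units at the start of the pathway (117 bp), and Insig1 (128 bp), and just inside it was Msmo1, a sterol methyl oxidase (91 bp). Replicate 1 alone had a summit at 5 further genes and replicate 2 alone at 5 others, and 4 genes had none in this window: Pmvk, Scap, Insig2 and Lcat. Of all 21887 genes, replicate 1 alone had one at 2144, replicate 2 alone at 2697, and neither at 10563.

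**Figure D2:**
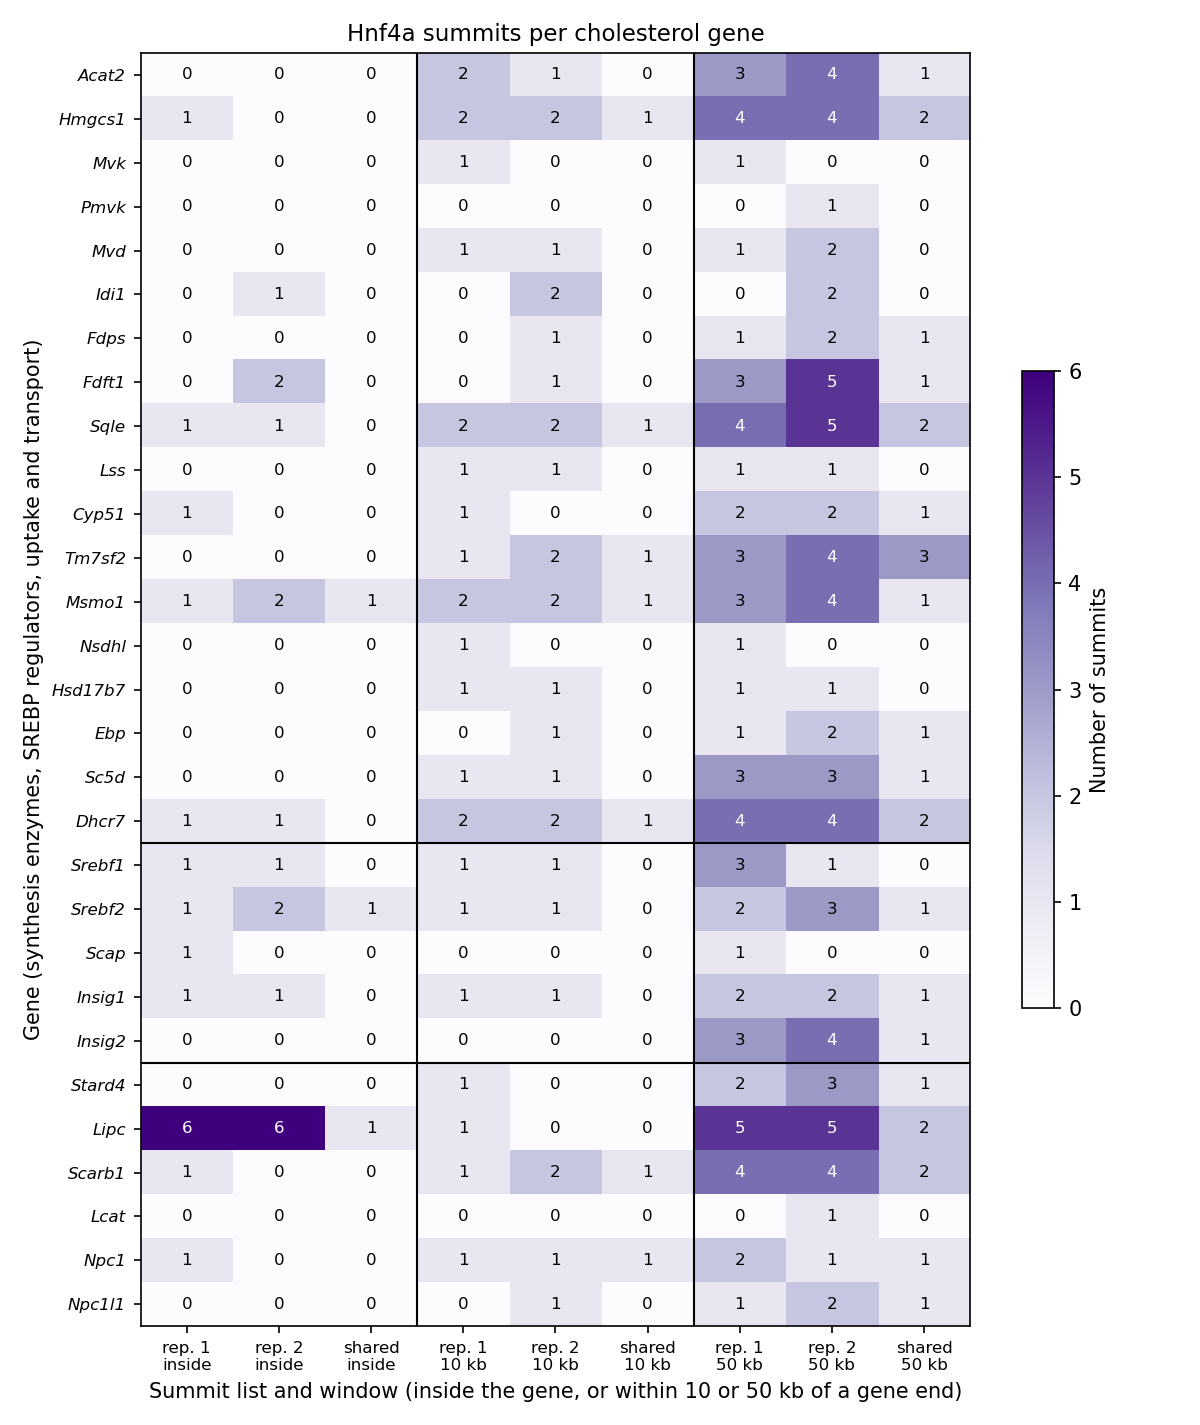
Number of Hnf4a summits (colour and digit) at each of the 29 genes (y axis, grouped into synthesis enzymes, SREBP regulators, and uptake and transport genes) for replicate 1, replicate 2 and shared summits inside the gene and within 10 or 50 kb of an end (x axis). Lipc stands out inside the gene with 6 summits in each replicate, and Tm7sf2 within 50 kb with 3 shared summits.

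The second question was where at the genes the summits lay. Many were at the very ends, and at genes with a listed strand all summits within 1 kb of an end were by the start, except for 1 at Lipc. Within 1 kb of an end, a window added after the positions had been seen, replicate 1 had a summit at 14 of 29 genes (48.3%) and replicate 2 at 12 (41.4%), against 18.2% and 18% of all genes. Shared summits lay there at 4 genes (13.8%), against 8.73%. Either replicate had one at 18 of 29 cholesterol genes (62.1%), against 24.6% of all genes. The RefSeq promoter table used here has a start for 23 of the 29 genes. Of these, 11 had a summit of replicate 1 within 1 kb of a start (47.8%) and 10 one of replicate 2 (43.5%), against 18.2% and 17.6% of 17492 genes, but only 2, Hmgcs1 and Dhcr7, had a shared one (8.7%), against 8.83%.

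**Figure D3:**
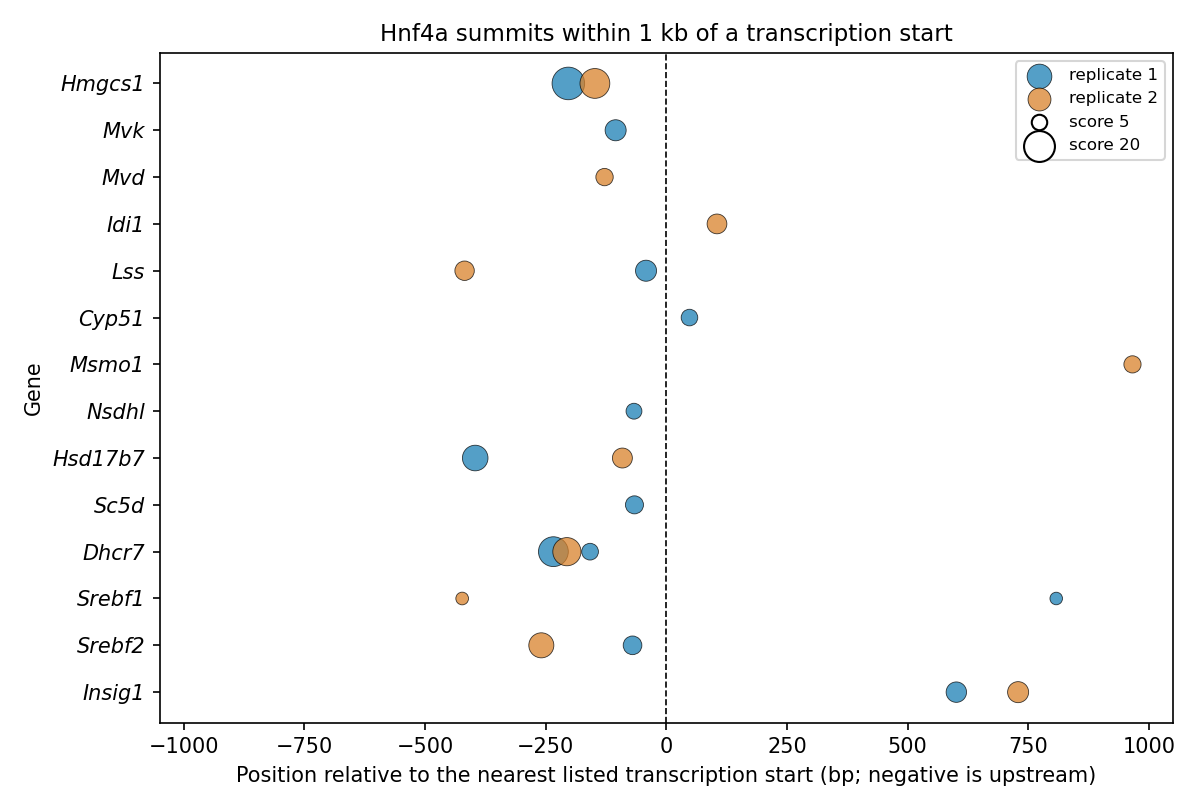
Summits of replicate 1 (blue) and replicate 2 (orange) within 1 kb of a listed transcription start, by gene (y axis) and position relative to the nearest start (x axis, bp; the area of a circle grows with its score). The replicates' circles touch at Hmgcs1 and Dhcr7, and stand apart at Lss and Hsd17b7. The Dhcr7 row also holds a replicate 1 summit (5.87) drawn 158 bp upstream of another listed start. On the chromosome it lies 7095 bp from the nearest replicate 2 summit. The 2 Srebf1 summits are likewise measured from different starts.

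Among the shared summits within 10 kb of a synthesis enzyme, those of Hmgcs1 and Dhcr7 had the highest scores in both replicates. Hmgcs1, which encodes the cytosolic synthase that makes HMG-CoA early in the pathway, had summits 203 bp upstream of its start in replicate 1 and 148 bp upstream in replicate 2. They scored 22.2 in replicate 1 and 18.6 in replicate 2, ranks 907 and 1377 of the lists. Dhcr7, which encodes the reductase of the last step from 7-dehydrocholesterol, had summits 234 bp upstream in replicate 1 and 206 bp upstream in replicate 2, with scores of 18.6 and 16.6. The nearest gene end to this region is not that of Dhcr7: Nadsyn1, an enzyme of NAD synthesis, ends 85 bp from its midpoint, against 220 bp for Dhcr7, so the summits cannot be given to 1 of these genes. Both replicates thus placed these summits inside the sequences printed above for Hmgcs1 and Dhcr7.

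Sqle, which encodes squalene epoxidase, an oxygen-dependent step at the head of the sterol branch, had a shared summit 381 bp outside the gene (chr15:59314694-59314729), with scores of 5.59 in replicate 1 and 10.2 in replicate 2. A further pair inside Sqle stood 119 bp apart, just over the limit, with scores of 8.20 in replicate 1 and 8.87 in replicate 2. Msmo1 had a shared summit inside the gene, 7094 bp downstream of its start. Its scores of 4.73 and 5.25 were low against list medians of 7.32 in replicate 1 and 6.67 in replicate 2. Tm7sf2, a sterol reductase gene, had a shared summit 1834 bp away (12.6 in replicate 1 and 6.67 in replicate 2) that lay only 220 bp from an end of its neighbour Znhit2. These 5 enzymes were all of the synthesis genes with a shared summit within 10 kb.

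At other enzymes both replicates had a summit at the start, but further apart. Lss, which encodes lanosterol synthase, had a summit 42 bp upstream of the start in replicate 1 (score 9.29) and 418 bp upstream in replicate 2 (7.90), 376 bp apart. Hsd17b7, a keto-reductase of sterol demethylation, had summits 396 bp upstream in replicate 1 (13.7) and 91 bp upstream in replicate 2 (8.33), 305 bp apart. Mvd, which makes isopentenyl pyrophosphate, had one 1291 bp upstream in replicate 1 (10.9) and one 128 bp upstream in replicate 2 (6.31). Counting summits within 500 bp as shared adds Lss and Hsd17b7, as well as Srebf2 and Insig1, at the ends of the genes: 8 cholesterol genes (27.6% of the 29) then had a shared summit within 1 kb of an end, against 11.2% of all genes.

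Other enzymes had a summit of only 1 replicate within 1 kb of a listed start. In replicate 1 these were Mvk, the mevalonate kinase gene (105 bp upstream, score 9.29), Cyp51, the lanosterol demethylase gene (48 bp downstream, 5.77), Nsdhl, a sterol dehydrogenase gene on the X chromosome (67 bp upstream, 5.28), and Sc5d, a sterol desaturase gene (66 bp upstream, 6.82). The Mvk summit is also 91 bp from an end of Mmab, and the Nsdhl summit 110 bp from an end of Cetn2. In replicate 2 they were, besides Mvd, Idi1, the isopentenyl pyrophosphate isomerase gene (105 bp downstream, 8.18), and Msmo1 (966 bp downstream, 6.20). Fdps, which encodes farnesyl pyrophosphate synthase, had a summit of replicate 2 265 bp from an end (13.8) with no start listed. Fdft1, the squalene synthase gene, and Ebp, a sterol isomerase gene, each had 1 summit of replicate 2 and none of replicate 1 within 10 kb, at 3610 bp (2.77) and 9742 bp (4.96). That of Fdft1 lay inside the gene, which held another summit of replicate 2, 14005 bp from an end (11.5).

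Of the enzymes with no shared summit within 10 kb, 6 had one between 10 and 50 kb away. Sc5d had the nearest, 11113 bp upstream of its start (10.2 in replicate 1 and 6.99 in replicate 2), just beyond the 10 kb limit. The highest-scored lay 33316 bp from Fdft1, with 35.0 in replicate 1 and 22.2 in replicate 2, ranks 206 and 810, and its nearest gene was Ctsb. Those of the other 4 lay inside other genes: 26884 bp from Acat2, in Mrpl18 (20.9 and 17.0), 37991 bp from Fdps, in Pklr (10.5 and 4.70), 48551 bp from Cyp51, in Akap9 (20.7 and 18.2), and 45624 bp from Ebp, in Ftsj1 (9.63 and 8.13). Mvk, Pmvk, Mvd, Idi1, Lss, Nsdhl and Hsd17b7 had none within 50 kb. Mvk, Nsdhl and Pmvk, the phosphomevalonate kinase gene, had the fewest summits of the enzymes in this window, with 1 each: those of Mvk and Nsdhl were of replicate 1, and that of Pmvk was of replicate 2, 42557 bp upstream (10.6).

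Among the 5 SREBP genes none had a shared summit within 10 kb of an end, against 20.6% of all genes, a comparison that rests on only 5 genes. Each replicate had a summit in this window at 3 of the 5 (60%), against 39.4% and 41.9% of all genes. Srebf2, which encodes SREBP-2, had the nearest shared summit of the 5, inside the gene and 18322 bp downstream of the start (chr15:82165589-82165594). Its summits were only 5 bp apart, with scores of 12.0 in replicate 1 and 10.3 in replicate 2. At the Srebf2 start, a summit 70 bp upstream in replicate 1 (7.30) and one 259 bp upstream in replicate 2 (13.1) were 189 bp apart. Insig1 had summits 601 bp downstream of its start in replicate 1 (8.74) and 729 bp downstream in replicate 2 (9.27). Both replicates thus had summits within 1 kb of the starts of Srebf2 and Insig1 without meeting the 100 bp limit.

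Srebf1, which encodes SREBP-1, the regulator of fatty acid genes, had only low scores near its starts: 3.31 in replicate 1, 808 bp downstream of a start, and 3.37 in replicate 2, 423 bp upstream of another. They lay 3185 bp apart and ranked below 95.52% of the replicate 1 list and 89.5% of the replicate 2 list. Scap had a single summit in replicate 1, inside the gene (3.99), and none in replicate 2 within 50 kb. Insig2 had no summit within 10 kb in either replicate. About 20 kb beyond the end of Insig2 opposite its start, replicate 1 had summits of 18.6 and 3.69 and replicate 2 one of 8.82, which lay 164 and 157 bp from them. The nearest shared summits of Insig1 and Insig2 lay 34278 bp (7.87 in replicate 1 and 7.21 in replicate 2) and 45089 bp (4.13 and 6.77) from the genes, outside both.

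The uptake and transport genes differed among themselves. Npc1, whose product moves cholesterol out of lysosomes, had a shared summit across a gene end, with the replicate 1 summit 4 bp inside the gene (7.97) and the replicate 2 summit 48 bp outside it (18.3). Scarb1, which encodes the HDL receptor SR-BI, had a shared summit 8733 bp away, just inside the 10 kb limit, with 11.7 in replicate 1 and 4.70 in replicate 2. The score of Npc1 was higher in replicate 2 and that of Scarb1 in replicate 1, by log2 ratios of 1.20 and −1.32 (replicate 2 over replicate 1). Stard4, a cytosolic sterol carrier gene, had a summit of replicate 1 207 bp from an end (10.5) and none of replicate 2 within 10 kb, and its nearest shared summit was 22132 bp away (5.66 and 4.87). Npc1l1, the sterol uptake protein of the intestine and of human liver, had its nearest shared summit 35933 bp away, inside Nudcd3 (9.39 and 8.96). Lcat, which esterifies cholesterol in plasma, had no summit of replicate 1 within 50 kb and 1 of replicate 2 at 20135 bp (3.85).

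Lipc, which encodes hepatic lipase, an enzyme that liver cells secrete to remodel lipoproteins, had the most summits of the list. It held 6 inside the gene in each replicate, and is also the longest gene of the list at 154.09 kb. The shared summit inside it (chr9:70834937-70834943) had positions 6 bp apart and scores of 17.8 in replicate 1 and 15.3 in replicate 2. The highest Lipc score in replicate 1 was 20.1, with no summit of replicate 2 within 6650 bp, and the highest in replicate 2 was 15.6, at 319 bp from a replicate 1 summit of 11.8. A pair 170 bp apart scored 7.70 in replicate 1 and 4.93 in replicate 2. No summit of either replicate lay within 1 kb of a listed Lipc start. The summit at the opposite end of the gene (69 bp from it, 4.69) was found in replicate 1 only.

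**Figure D4:**
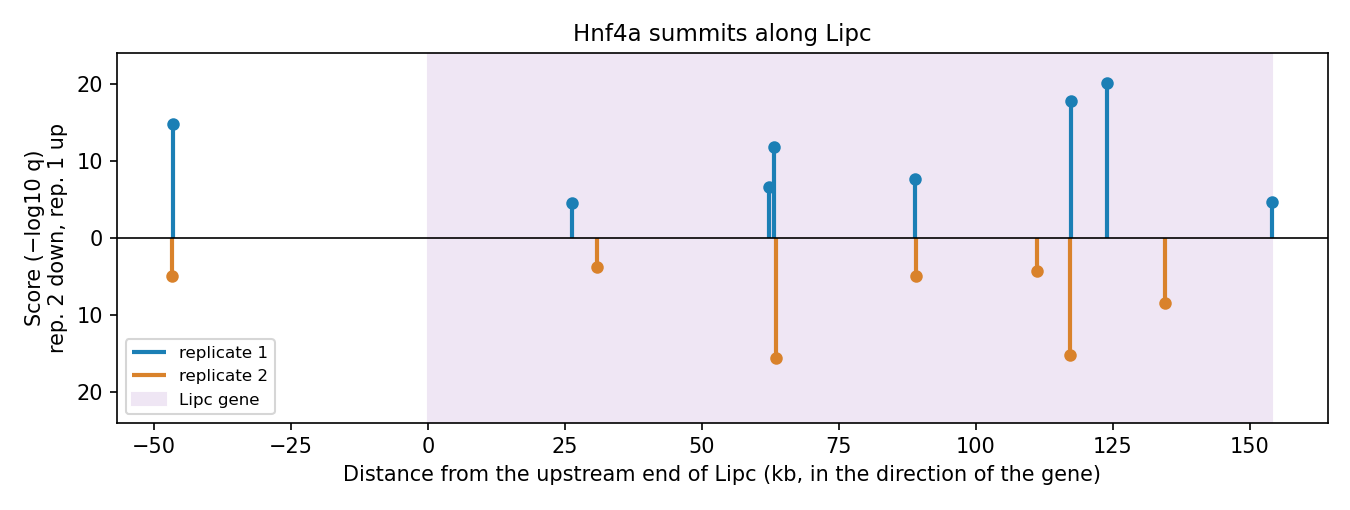
Summits of replicate 1 (blue, up) and replicate 2 (orange, down) along Lipc, with the score (−log10 q, y axis) against distance from the upstream end of the gene (kb, x axis; shaded, the 154.09 kb of the gene). Lines meet at the shared summit inside the gene, which scored 17.8 in replicate 1 and 15.3 in replicate 2. They also meet at a shared summit 46648 bp upstream of the gene (14.7 and 4.96). The highest line of replicate 1 (20.1) has no partner.

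The third question was whether the synthesis enzymes differed from the regulators and the uptake and transport genes. Replicate 1 had a summit within 10 kb at 13 of 18 enzymes (72.2%) and replicate 2 at 14 (77.8%), against 7 (63.6%) and 6 (54.5%) of the other 11 genes, and 39.4% and 41.9% of all genes. Shared summits lay within 10 kb of 5 of the 18 enzymes (27.8%), against 2 of the 11 (18.2%) and 20.6% of all genes. That order was turned with a limit of 200 bp, at 6 enzymes (33.3%) against 4 of the 11 (36.4%), with the whole gene added to the window, at 5 (27.8%) against 4 (36.4%), and with each summit counted for its nearest gene only, at 3 (16.7%) against 2 (18.2%). The shares of all genes in these settings were 24%, 26% and 14.5%. Within 50 kb, shared summits lay at 11 enzymes (61.1%), against 8 of the 11 (72.7%) and 46.8% of all genes. Inside the gene, 5 of 18 enzymes had a summit of replicate 1 (27.8%) and 5 of replicate 2, which is near the 26.3% and 28.4% of all genes, against 7 (63.6%) and 4 (36.4%) of the 11. The enzymes' genes were shorter, with a median of 16.22 kb against 28.31 kb. Within 1 kb of an end, replicate 1 had a summit at 9 enzymes (50%), against 5 of the 11 (45.5%) and 18.2% of all genes. Replicate 2 also had one at 9 enzymes, in part different ones, against 3 of the 11 (27.3%) and 18% of all genes. Both replicates had one at 5 enzymes (27.8%), against 3 of the 11 (27.3%) and 11.6% of all genes. With 18 and 11 genes these shares move by several percentage points per gene, and the differences were not tested.

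The fourth question was how the scores of these summits compared with the rest. Summits within 10 kb of a cholesterol gene had a median score of 7.97 in replicate 1 (25 summits) and 6.67 in replicate 2 (27 summits), against medians of 7.32 and 6.67 over the whole lists. Of these, 28% in replicate 1 and 25.9% in replicate 2 had a counterpart within 100 bp, against 43.2% and 38.1% of the lists. Within 50 kb the shares were 42.6% of 61 summits and 36.1% of 72, close to those of the lists. The 26 shared regions inside the genes or within 50 kb scored a median of 9.91 in replicate 1 and of 8.69 in replicate 2, against 9.93 and 9.61 over all 9193 shared regions. In 12 of the 26 the nearest protein-coding gene was a gene of the list, and in 14 it was another gene. The like share was not worked out for other genes, so these counts have no background beside them. The scores of summits by cholesterol genes were thus close to those of the lists, while counterparts within 100 bp were less common among those within 10 kb but not among those within 50 kb; neither was tested.

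**Figure D5:**
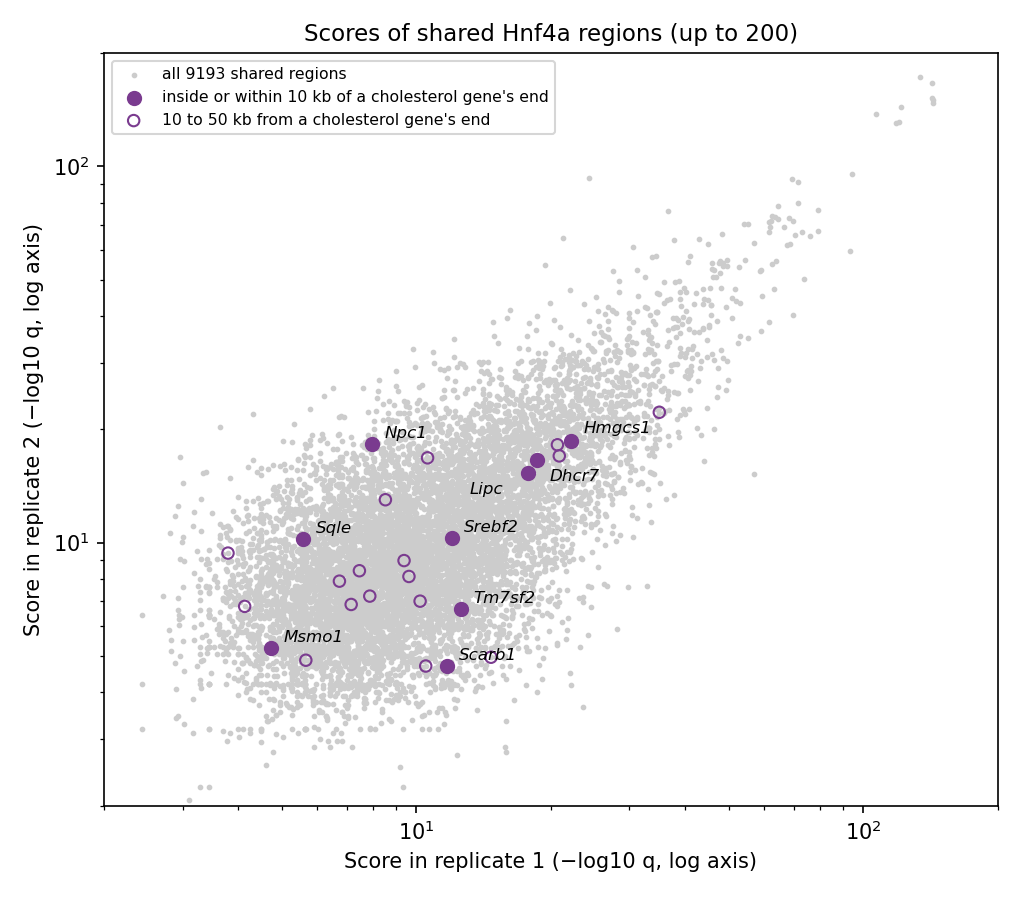
Scores (−log10 q) of shared regions in replicate 1 (x axis) and replicate 2 (y axis), both on log axes, for all 9193 shared regions up to a score of 200 (grey) and for those at cholesterol genes (purple; filled, inside the gene or within 10 kb of an end; open, further out). Hmgcs1 (22.2 and 18.6) and Dhcr7 (18.6 and 16.6) lie toward the upper right, and Npc1 (7.97 and 18.3) and Scarb1 (11.7 and 4.70) lie off the diagonal on opposite sides.

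The sequences before the starts were searched for 3 motifs on both strands: CAAAGNNCA, a core of HNF4 sites, TCACNCCAC, a core of the sterol response element bound by SREBP, and CCAAT, bound by NF-Y, which is known to act with SREBP. In the 250 bases before each of 21263 listed starts, the HNF4 letters were found in 5.02%, the sterol response letters in 1.01% and CCAAT in 35.4%. Among the 32 listed starts of the 23 cholesterol genes they were found in 4 (12.5%), 1 (3.12%) and 23 (71.9%). The sterol response match was TCACCCCAC in Hmgcs1, 137 to 129 bp upstream of the start, beside the replicate 2 summit at 148 bp. The HNF4 matches lay before starts of Dhcr7, Cyp51, Insig2 and Lipc, and that of Dhcr7 was CAAAGCGCA, 126 to 118 bp upstream, nearer to the start than both summits. In the Hmgcs1 sequence 1 of the 3 CCAAT matches, read on the opposite strand, lay 176 to 172 bp upstream, between the summits. These matches describe letters, not binding sites, and the sequences around summits away from listed starts were not analysed here.

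The remaining genes of the pathway were taken from 5 further lists of 35 genes. Summits of replicate 1 lay within 10 kb of 20 of them (57.1%), of replicate 2 within 10 kb of 21 (60%) and shared ones within 10 kb of 10 (28.6%), against 39.4%, 41.9% and 20.6% of all genes. SREBP processing and sterol-regulated degradation had shared summits at 3 of 7 genes, among them Faf2, 1185 bp away (9.17 in replicate 1 and 7.45 in replicate 2), and Mbtps2, the site-2 protease that releases SREBP, 497 bp away (5.87 and 7.63). Fatty acid synthesis genes had them at 3 of 9. Fads2, a desaturase gene, had one at 198 bp (17.5 and 11.6), and Scd1 had one at 671 bp (4.09 and 11.3). Fads1 had one inside the gene (6.51 and 7.45) and one 7165 bp away (7.27 and 9.68), whose nearest gene is Fen1. The isoprenoid branches had them at 2 of 8, Ggps1 at 22 bp (17.7 and 12.8) in a region whose nearest gene is Arid4b, and Pdss2, inside the gene (10.3 and 4.61). LXR and sterol efflux genes had 1 of 7, Nr1h2 at 700 bp (6.43 and 8.93), in a region whose nearest gene is Pold1. Lysosomal and membrane transport had 1 of 4, Lipa, the lysosomal acid lipase gene, inside the gene (9.31 and 5.70).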

How the data were processed

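Each deposited file lists the 1-bp peak summits of 1 library with the authors' score, the −log10 of a q-value. The submitters' processing notes name build mm10 and, with no order, the tools MACS2 (2.2.9.1), HISAT2 (2.0.5) and fastp (0.23.4). A q threshold of 0.01 is written into the names of the peaks. For a control library, duplicate removal and region filters, no statement was found: these steps are not given in the sources used here. Without read counts in the files, depth is unknown.

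Genes are the spans of 21887 protein-coding genes in RefSeq GRCm38.p6, the assembly of mm10. The table gives no strand; strands and starts came from the RefSeq promoter table, which lists them for 23 of the 29 genes. A window of 10 kb or 50 kb counts summits within that distance of either gene end, on either side, so that the middle of a long gene is left out. Neighbouring summits up to 100 bp apart, from either list, were joined, and a shared summit is the midpoint of a joined region holding both replicates. Exons, introns and untranslated regions were not distinguished. All counts, distances and ranks were computed with Python 3.11.15, numpy 2.4.6 and pandas 2.3.3, and the counting was tested on simulated data. Scores served for ranks, filters and description only.

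There is 1 group, so no test was made. The genes and lists were chosen with earlier results of these data known. All members are accounted for. Where a shared summit lay inside the gene or within 10 kb, it is given with its scores and its distance or position. Shared summits of those genes further out are not all described. Genes outside the lists are named only where they hold, or have an end near, a summit described for a gene of the lists. The 250 bases before a start are shown for 5 of the genes with a summit within 1 kb of a start, a choice made after the values were seen.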

Additional observations from a re-analysis of the deposited data

How the results depend on the processing

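No paired analysis was possible because there is 1 group and no result comes from a test. Shares are of the 29 genes, or of the part of the list that is named, against all genes. With summits of both replicates within 50 bp, 4 genes had a shared summit within 10 kb (13.8% against 15.2%; 3 enzymes and 1 other gene) and 2 within 1 kb (6.9% against 6.25%). Within 200 bp, shared summits lay inside 5 genes (17.2% against 15.7%) and within 10 kb of 4 of the 11 regulators and transport genes (36.4% of the 11, against 24%). Within 500 bp, 12 genes had one within 10 kb (41.4% against 25.4%; 8 enzymes and 4 others), 8 within 1 kb (27.6% against 11.2%) and 5 inside the gene (17.2% against 16.5%).

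With the 10000 best-scored summits of each list, 3 genes had a shared summit within 10 kb (10.3% against 12%; 2 enzymes and 1 other) and 11 within 50 kb (37.9% against 31.1%). Replicate 1 then had a summit within 10 kb of 13 genes (44.8% against 22.5%) and within 1 kb of 8 (27.6% against 10.1%), and replicate 2 within 10 kb of 10 (34.5% against 22.2%). At scores of 5 or more, 1 of the 11 regulators and transport genes had a shared summit within 10 kb (9.09% of the 11, against 18.2%). Counting each summit for its nearest gene only left 3 enzymes within 10 kb (16.7% of the 18, against 14.5%) and 11 genes within 50 kb (37.9% against 22.1%). With the whole gene added to the 10 kb window, 4 of the 11 had a shared summit (36.4% of the 11, against 26%). Measured from listed starts, which 23 genes have, 4 genes had a shared summit within 10 kb (17.4% against 16.5%), none (0) of them among the regulators and transport genes, and 11 within 50 kb (47.8% against 41%). The share within 10 kb was thus below that of all genes at 50 bp, at scores of 5 or more and with the 10000 best-scored summits.

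Leaving out 1 replicate ends the requirement that summits be shared, so the counts grow by construction: 20 in both cases within 10 kb, 12 to 14 within 1 kb, 26 in both cases within 50 kb, 9 to 12 inside the gene, 13 to 14 for enzymes and 6 to 7 for the 11 others. The other alternatives stayed within 1.5 times the counts reported. Read depth is unknown from the lists, so a missing summit does not show that a site was unbound.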
